A study of Mus musculus with 8 samples.

Results

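The genes described here encode the proteins of the mouse cell's 2 kinds of ribosome, the cytosolic one and the mitochondrial one. They were taken from the gene annotation of the count table by name: protein-coding rows whose symbol begins with Rpl or Rps and a digit, or is Rplp0, Rplp1, Rplp2 or Rpsa, or begins with Mrpl or Mrps and a digit, leaving out the Rps6k kinases. Of 54532 genes in the table, 172 carried such a name, and 163 of them had at least 10 reads in each of the 8 libraries. These 163 members were 86 cytosolic genes (51 named for the large subunit and 35 for the small) and 77 mitochondrial genes (48 large, 29 small). All 163 were among the 16745 genes tested. The rule for members used names and read depth and no difference between groups, but it was chosen with earlier results of these data known.

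Bulk RNA sequencing of the medial prefrontal cortex (mPFC) was done on adult male C57BL/6 mice in a study of conditioned place preference (CPP). In a CPP test an animal chooses between a chamber it associates with a drug, here methamphetamine (METH), and another chamber. The retrieval group and the non-retrieval group had 4 libraries each. The time of sampling is given as 1 hour after the test, and each library was a pool of 2 to 3 mice. What the non-retrieval mice went through before their tissue was taken, including whether they had a CPP test, is not stated in the labels. Since each library is a pool, p-values measure the spread between pools and not between single animals. The table held 25013503 to 29547978 assigned reads per library.

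Both ribosomes are built from a small subunit, which reads the message, and a large subunit, which joins the amino acids. The cytosolic ribosome translates nearly all of the cell's messages, and its protein genes are known for a shared pyrimidine tract at the start of their transcripts, through which the kinase complex mTORC1 controls their translation. The mitochondrial ribosome translates only the few respiratory chain subunits encoded by mitochondrial DNA; its proteins are all encoded in the nucleus and imported, while its ribosomal RNAs are made inside the organelle.

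Sequences at the transcription starts were compared between the 2 families. The printed sequences are from RefSeq promoters (build GRCm38.p6), 5′ to 3′ on the gene's strand, and show a feature counted in the cytosolic family alone and motifs counted in both. The first 4, all cytosolic, cover 20 bases before to 20 bases after the annotated start; capitals mark the run of C and T that begins at the first transcribed base. In the last 3, all mitochondrial, capitals mark a motif match.
Rpl15, chr14:18270967-18271006, minus strand: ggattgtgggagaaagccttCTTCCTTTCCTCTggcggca
Rps6, chr4:86857348-86857387, minus strand: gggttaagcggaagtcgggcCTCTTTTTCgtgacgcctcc
Rps27, chr3:90213629-90213668, minus strand: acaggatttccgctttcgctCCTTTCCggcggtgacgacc
Rps27rt, chr9:114982720-114982759, minus strand: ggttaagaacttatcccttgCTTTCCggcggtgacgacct
Mrps27, chr13:99344721-99344760, plus strand: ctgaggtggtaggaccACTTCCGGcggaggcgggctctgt
Mrps18c, chr5:100798586-100798625, plus strand: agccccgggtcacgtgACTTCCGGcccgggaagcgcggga
Mrpl9, chr3:94443293-94443332, plus strand: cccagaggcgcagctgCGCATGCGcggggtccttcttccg

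Promoter windows, from 250 bases before to 50 bases after a start, were found for 62 of the 86 cytosolic and 68 of the 77 mitochondrial genes. A C at the start followed by at least 4 more C or T stood in 14 of the 62 cytosolic genes (22.6%) and in 0 of the 68 mitochondrial genes (0.0%), beside 3.0% of the 11926 tested genes with a window. Rpl15, a large-subunit protein, had a run of 13 pyrimidines and Rps6, the small-subunit protein that S6 kinases phosphorylate, a run of 9. Annotated starts can be off by a few bases, so the count depends on them. The ETS-family motif CCGGAAGT, searched on both strands, was in 12 cytosolic genes (19.4%) and 12 mitochondrial genes (17.6%), against 8.07% of tested genes. It lay 49 bases before the start of Mrps27 and 157 bases before that of Mrps18c, in both on the opposite strand. The YY1 motif AAGATGG, on either strand, was in 10 cytosolic genes (16.1%) and 13 mitochondrial genes (19.1%), against 7.89%. The palindrome CGCATGCG, the core of the NRF1 motif, was in 3 cytosolic genes (4.84%) and 7 mitochondrial genes (10.3%), Mrpl9 among them, against 3.88%. No one of these motifs contains another. A match is a description of the letters in the window, not of binding. The genes also lay scattered: the cytosolic members were on 20 chromosomes, with 4 genes on the X, and the mitochondrial members on 17, with 0 on the X.

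Cytosolic ribosomal protein messages were the more abundant by far. Levels were compared between genes as RPKM, read counts scaled to gene length and library size. The median over members was 9.01 RPKM for the mitochondrial ribosome and 53.6 RPKM for the cytosolic one, against 3.88 RPKM over all tested genes. The mitochondrial genes also spanned the narrower range, 1.52 to 40.3 RPKM, against 0.872 to 608 RPKM for the cytosolic genes.

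**Figure D1:**
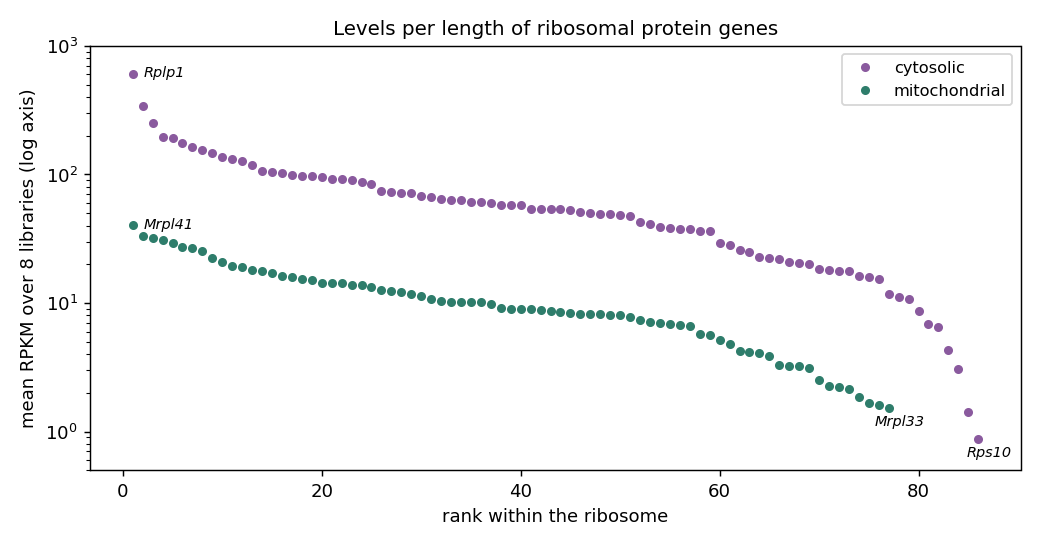
Mean RPKM over the 8 libraries (log axis) of each member, ranked from high to low within its ribosome. The 77 mitochondrial genes run from Mrpl41 at 40.3 to Mrpl33 at 1.52 RPKM, and the 86 cytosolic genes from Rplp1 at 608 to Rps10 at 0.872 RPKM.

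The highest cytosolic gene was Rplp1, one of the acidic proteins of the stalk that recruits translation factors, at 608 RPKM. It was followed by Rps15 at 343, Rps3a1 at 251, Rpl8 at 194 and Rpl4 at 193 RPKM. The lowest were Rps10 at 0.872 RPKM and the rows Rpl27-ps3 at 1.43 and Rpl10-ps3 at 3.05 RPKM, which carry pseudogene-style names but are annotated as protein coding. Among mitochondrial genes Mrpl41 was highest at 40.3 RPKM, then the small-subunit gene Mrps12 at 33.3, Mrpl34 at 32.3, Mrpl43 at 30.7 and Mrpl27 at 29.1 RPKM. The lowest were Mrpl33 at 1.52, Mrps30 at 1.62 and Mrpl32 at 1.68 RPKM. Subunits follow the gene names here, although the proteins of Mrps30 and Mrps18a are known to sit in the large subunit. The proteins of one subunit are present in a ribosome in near-equal numbers, the stalk proteins apart. Their messages per gene length differed by more than an order of magnitude within each ribosome. The deposited lengths can exceed a transcript: Rps10 had 2311 bases, against 644 in an annotated transcript. Mrpl33, at 7326 bases, averaged 10.41 CPM in retrieval, and Mrps28, at 783 bases, 5.783 CPM. What part of the spread in RPKM came from the lengths was not tested.

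In retrieval the summed mitochondrial family stood slightly lower than in non-retrieval, and the summed cytosolic family differed by less than the spread between libraries. Summed over its 77 genes, the mitochondrial ribosome took 1806, 1806, 1772 and 1834 CPM (read counts scaled to library size) in retrieval libraries, against 1905, 1861, 1934 and 1972 CPM in non-retrieval libraries. All 4 retrieval sums lay below all 4 non-retrieval sums. The means were 1805 ± 25.3 CPM in retrieval and 1918 ± 46.6 CPM in non-retrieval (SD, n = 4 each), a difference of -5.9%. Summed over 86 genes, the cytosolic ribosome took 9130, 9639, 9510 and 10110 CPM in retrieval libraries, against 9727, 9250, 9779 and 10200 CPM in non-retrieval libraries. These ranges overlapped almost entirely. The means were 9597 ± 404 CPM in retrieval and 9739 ± 389 CPM in non-retrieval (SD, n = 4 each), and they differed by -1.46%. Because the members were chosen with results of these data known, no p-value is given for a sum. In bulk tissue fewer cells of a type and less RNA per cell cannot be told apart.

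A ratio within a library does not depend on how the library was scaled. For every 100 reads on cytosolic genes there were 19.8, 18.7, 18.6 and 18.2 reads on mitochondrial genes in retrieval libraries, against 19.6, 20.1, 19.8 and 19.3 in non-retrieval libraries. The first retrieval library fell inside the non-retrieval range and the other 3 below it. The mean ratio was 18.8 ± 0.69 in retrieval and 19.7 ± 0.336 in non-retrieval (SD, n = 4 each). By subunit, the mitochondrial large-subunit sums ran from 1148 to 1189 CPM in retrieval and from 1217 to 1286 CPM in non-retrieval, without overlap. The small-subunit sums ran from 623.2 to 644.9 CPM in retrieval and from 644.1 to 686.1 CPM in non-retrieval, meeting by less than 1 CPM.

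**Figure D2:**
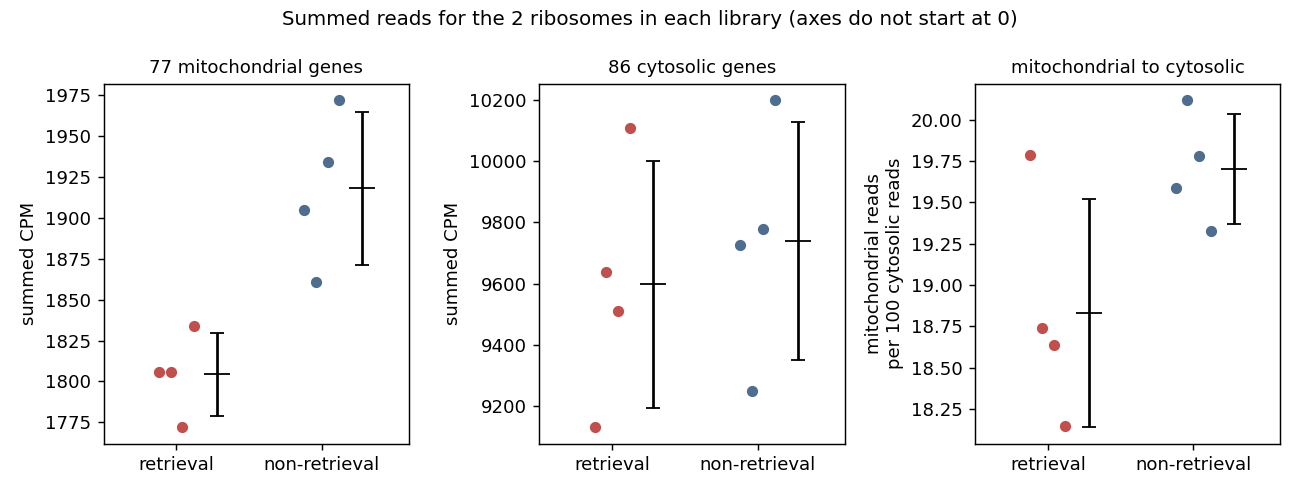
Summed CPM of the 77 mitochondrial genes, summed CPM of the 86 cytosolic genes and mitochondrial reads per 100 cytosolic reads, with 1 point per library and bars for mean ± SD (n = 4 per group; axes do not start at 0). The mitochondrial sums of retrieval libraries, 1772 to 1834 CPM, lie below those of non-retrieval libraries, 1861 to 1972 CPM, while the cytosolic sums overlap.

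Gene by gene, 1 of the 163 members changed at an adjusted p under 0.05 in edgeR's quasi-likelihood test across all tested genes, of which 4.57% changed in either direction. It was the cytosolic gene Rpl17, which was lower in retrieval. Among cytosolic genes 1 of 86 was called lower (1.16%), against 0.902% of all tested genes, and 0 were called higher, against 3.67% of all tested genes. Of the 77 mitochondrial genes 0 were called lower and 0 higher by edgeR, and 0 by DESeq2. limma-voom called 2 lower, Mrps27 and Mrpl9, and of the cytosolic genes 1 higher, Rps29. Over all tested genes limma-voom also called more than edgeR in both directions, with the counts given in the last section. At an unadjusted p under 0.05, edgeR had 9 mitochondrial genes lower (11.7%) and 0 higher, against 7.27% and 11.2% of all tested genes. The count of 9 depended on single libraries: it was 5 without non-retrieval library 3, 3 without non-retrieval library 4, 5 without retrieval library 2, 2 without retrieval library 3 and 5 without retrieval library 4, and 5.13% to 6.37% of all tested genes were then lower. With the myelin covariate described further on it was 5, and with upper-quartile scaling 17. The cytosolic genes had 1 lower and 2 higher at that threshold.

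The mitochondrial genes leaned one way. Of 77, 73 had a negative log2 fold change (retrieval over non-retrieval), or 94.8%, against 52.2% of all tested genes. Their median was -0.09, with the middle 50% between -0.14 and -0.05, against a median of -0.01 over all tested genes. The 48 large-subunit genes had a median of -0.09 with 45 negative, and the 29 small-subunit genes a median of -0.06 with 28 negative. Of the 86 cytosolic genes 50 were negative (58.1%), with a median of -0.01. The small-subunit cytosolic genes split almost evenly, 18 negative of 35, and the large-subunit genes had 32 negative of 51. Members share their libraries, so these counts describe the 8 libraries and are not independent observations.

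**Figure D3:**
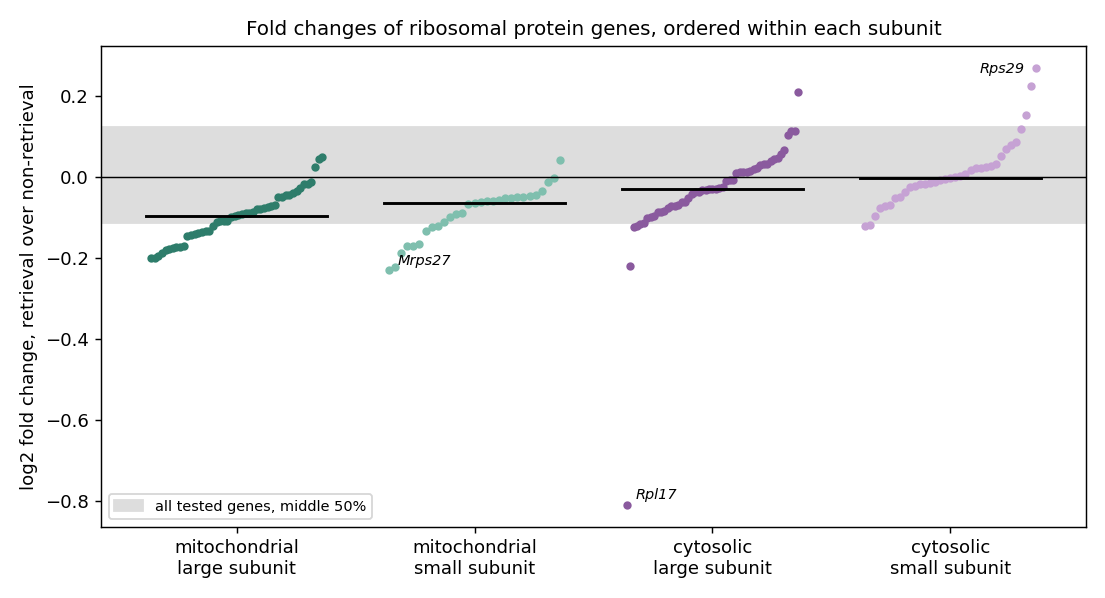
Log2 fold change, retrieval over non-retrieval, of each member in order within its subunit, with black lines at subunit medians and a grey band for the middle 50% of all tested genes. The mitochondrial points lie mostly below 0 (73 of 77), the cytosolic points lie on both sides, and Rpl17 stands apart at -0.81.

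The median standard error of a member's log2 fold change was 0.08 for mitochondrial and 0.07 for cytosolic genes, so shifts of the mitochondrial median's size are close to the error of 1 gene. In counts simulated from these libraries the same test recovered 4.08% of genes changed by 0.2 on the log2 scale, 46% of those changed by 0.5 and 90% of those changed by 1. These rates came with 127 calls in all, against 766 in the measured counts. The median standard error over all tested genes was 0.098. The rate for mitochondrial genes alone was not tested.

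In 8 mitochondrial genes (10.4%) every retrieval library lay below every non-retrieval library, as in 4.53% of all tested genes, and in 0 did every one lie above, as in 6.59% of all tested genes. These 8 were Mrps27, Mrps16, Mrpl55, Mrps10, Mrps18c, Mrpl11, Mrps5 and Mrps9, of which the last 5 were singled out after their values were seen. Mrps27, an RNA-binding protein of the small subunit, had 19.7, 19.9, 19.99 and 19.6 CPM in retrieval libraries, against 21.4, 22.3, 23.8 and 25.2 CPM in non-retrieval libraries. The retrieval values were tightly grouped, and the non-retrieval ones spread upwards from them. Its log2 fold change was -0.23 (SE 0.08; edgeR adjusted p = 0.112), the smallest adjusted p of the family. Mrps16, a small-subunit protein with a bacterial counterpart, had 13.2, 13.3, 11.5 and 13.4 CPM in retrieval libraries, against 14.37, 15.04, 14.01 and 16.48 CPM in non-retrieval libraries. The third retrieval library was the lowest, and the other 3 were nearly equal. The log2 fold change was -0.22 (SE 0.09; edgeR adjusted p = 0.184).

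Mrpl55, a large-subunit protein without a bacterial counterpart, had 17.0, 19.6, 17.1 and 19.4 CPM in retrieval libraries, against 21.1, 21.1, 19.8 and 21.8 CPM in non-retrieval libraries. The groups came within 1 CPM of each other without meeting, and the log2 fold change was -0.20 (SE 0.08; edgeR adjusted p = 0.196). Mrps18c is one of 3 mammalian relatives of the bacterial S18 protein. It had 8.08, 7.52, 7.05 and 7.03 CPM in retrieval libraries, against 8.80, 8.13, 8.62 and 8.24 CPM in non-retrieval libraries. The highest retrieval library lay just under the lowest non-retrieval one, and the log2 fold change was -0.19 (SE 0.10; edgeR adjusted p = 0.324). Mrpl11, which lies at the base of the large-subunit stalk, ranged from 26.2 to 29.1 CPM in retrieval and from 29.2 to 32.4 CPM in non-retrieval, with a log2 fold change of -0.14. The small-subunit genes Mrps10, Mrps5 and Mrps9 had log2 fold changes of -0.17, -0.12 and -0.11. None of these reached an adjusted p under 0.05 in edgeR.

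**Figure D4:**
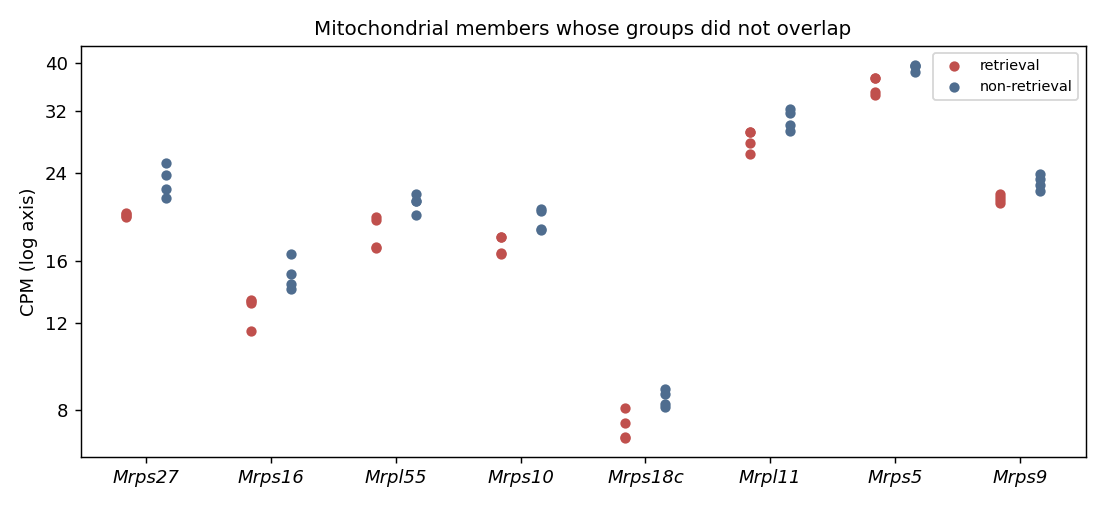
CPM (log axis) of the 8 mitochondrial genes whose groups did not overlap, with 1 point per library, retrieval left of non-retrieval (n = 4 each), in order of increasing p. Every gap is small: for Mrps27 retrieval libraries lie at 19.56 to 19.99 CPM and non-retrieval libraries at 21.4 to 25.2 CPM.

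Of the other low mitochondrial genes, Mrpl18, a large-subunit protein, ranged from 17.8 to 19.96 CPM in retrieval and from 18.5 to 24.2 CPM in non-retrieval, and edgeR gave -0.20 on the log2 scale (adjusted p = 0.242). Mrpl33 ranged from 8.59 to 12.1 CPM in retrieval and from 11.4 to 12.5 CPM in non-retrieval, and edgeR gave -0.19 on the log2 scale (adjusted p = 0.336). In both the groups overlapped. Mrpl9, which limma-voom called, had 33.5, 29.8, 30.6 and 29.3 CPM in retrieval libraries, against 31.97, 34.8, 37.2 and 34.8 CPM in non-retrieval libraries. Its first retrieval library lay above its first non-retrieval one, and edgeR gave -0.17 (adjusted p = 0.227). Only 4 mitochondrial genes had a positive log2 fold change. They were Mrpl37 at 0.05, Mrpl52 at 0.05, Mrps25 at 0.04 and Mrpl35 at 0.02, each under its standard error of 0.07 to 0.11. The fifth highest, Mrps2, ran from 23.0 to 25.1 CPM in retrieval and from 21.7 to 25.4 CPM in non-retrieval, so that it showed no direction.

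The 5 highest mitochondrial genes were not called. Mrpl41 ranged from 32.2 to 36.4 CPM in retrieval and from 34.1 to 37.9 CPM in non-retrieval. Mrps12, the counterpart of the bacterial S12 protein of the decoding centre, ranged from 30.5 to 37.4 CPM in retrieval and from 33.2 to 37.7 CPM in non-retrieval. Their log2 fold changes were -0.05 and -0.03. Mrpl34 and Mrpl43 had -0.05 and -0.04, and Mrpl27 -0.15 (edgeR adjusted p = 0.375). The genes most variable within groups were Mrps18b, Mrpl54 and Mrps28, with a within-group SD of 0.21, 0.19 and 0.18 in log2 CPM.

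Rpl17, a protein of the tunnel exit of the large subunit, was the member that changed. It had 28.7, 27.8, 27.2 and 38.1 CPM in retrieval libraries, against 77.1, 37.0, 37.9 and 61.3 CPM in non-retrieval libraries. Retrieval library 4 lay above non-retrieval libraries 2 and 3, so the groups overlapped. The log2 fold change was -0.81 (SE 0.19; edgeR adjusted p = 0.0197). The adjusted p was 0.0508 without non-retrieval library 1, 0.0755 without non-retrieval library 4 and 0.0677 without retrieval library 3. DESeq2 gave 0.0686.

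The table also holds rows named as pseudogenes of Rpl17, chosen here after their values were seen, and 1 of these rows rose. Rpl17-ps10 had 64.8, 70.5, 64.8 and 60.7 CPM in retrieval libraries, against 32.8, 56.2, 53.9 and 46.9 CPM in non-retrieval libraries. Every retrieval library lay above every non-retrieval one, with a log2 fold change of 0.46 (SE 0.12; edgeR adjusted p = 0.0364). The call was lost without any 1 of 5 libraries, non-retrieval 3 or 4 and retrieval 2, 3 or 4 (adjusted p = 0.0565 to 0.104), and with upper-quartile scaling (0.0551). Its transcript, of 555 bases, aligned to that of Rpl17 with 4 mismatches and an identity of 99.3%, and the longest exactly shared stretch was 403 bases. Another row, Rpl17-ps3, was closer still, with 2 mismatches and an identity of 99.6%, and it did not change. Rpl17-ps3 averaged 42.4 CPM in retrieval and 42.3 CPM in non-retrieval, with a log2 fold change of 0.003 (SE 0.08, edgeR adjusted p = 0.992). Rpl17 and Rpl17-ps10 together had 93.5, 98.3, 91.9 and 98.8 CPM in retrieval libraries, against 109.9, 93.1, 91.7 and 108.2 CPM in non-retrieval libraries. The sums overlapped, and the gap seen in Rpl17 alone was not in them. With the reads of all its pseudogene rows added to Rpl17, the log2 fold change was -0.03 (SE 0.07; edgeR adjusted p = 0.841). The call for Rpl17 is therefore uncertain: it held for the reads assigned to that row and not for the reads of the row and its near-identical copies together.

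In a second pair the split of reads between gene and copy differed from library to library, and the cause was not tested. Rps27, a small-subunit protein with a zinc finger, and Rps27rt, a copy on another chromosome, were the most variable cytosolic members, with a within-group SD of 0.63 and 0.93 in log2 CPM against a median of 0.11 over cytosolic genes. Rps27 had 36.05, 50.9, 19.4 and 49.1 CPM in retrieval libraries, against 49.6, 37.2, 42.0 and 18.4 CPM in non-retrieval libraries. Rps27rt had 32.2, 10.3, 43.2 and 14.02 CPM in retrieval libraries, against 23.4, 16.4, 11.6 and 48.5 CPM in non-retrieval libraries. Rps27rt was highest in the very libraries, retrieval 3 and non-retrieval 4, in which Rps27 was lowest. Their sum ranged only from 61.1 to 68.3 CPM in retrieval and from 53.6 to 73.0 CPM in non-retrieval. The transcripts were identical over 341 aligned bases. The printed starts show the same: 19 bases run letter for letter from the second base of the Rps27 transcript and the first base of Rps27rt, while the bases before the starts differ. Neither gene was called (edgeR adjusted p = 0.903 for Rps27 and 0.992 for Rps27rt), but with the myelin level as a covariate edgeR called Rps27rt higher.

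**Figure D5:**
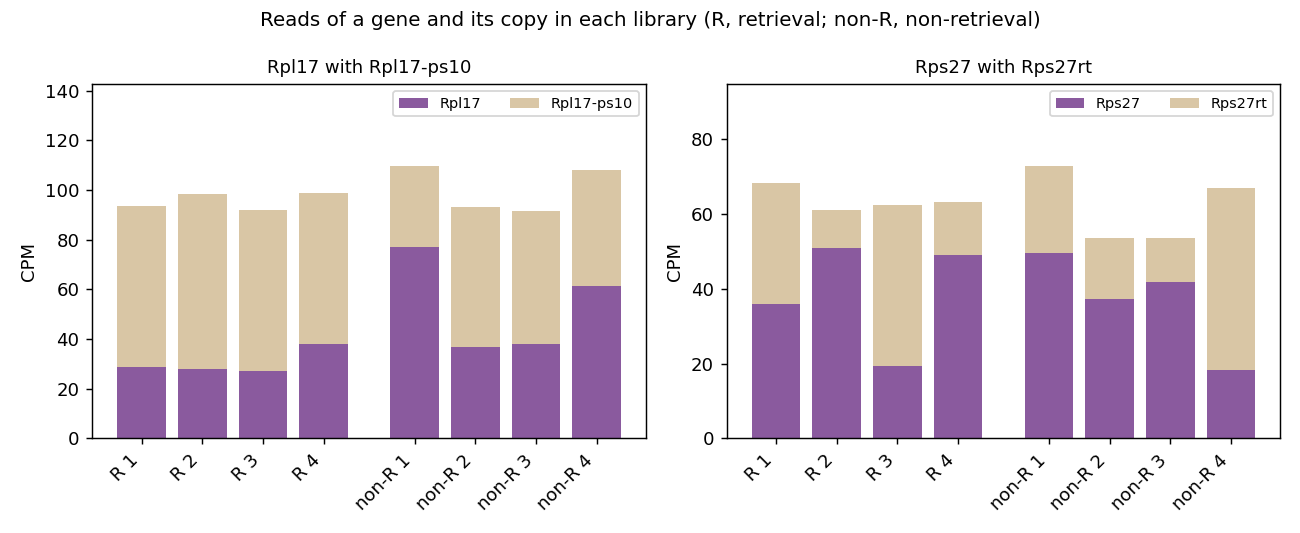
CPM of Rpl17 stacked with Rpl17-ps10 and of Rps27 stacked with Rps27rt in each library (R, retrieval; non-R, non-retrieval). The parts of a bar vary more than its height: Rps27 alone spans 18.4 to 50.9 CPM, and the sum of the pair 53.6 to 73.0 CPM.

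Such copies are a feature of the cytosolic family. In the mitochondrial family 3 of 77 members had pseudogene rows named after them, 5 rows in all. In the cytosolic family 60 of 86 members had such rows, 292 in all. In 12 cytosolic members the pseudogene rows held at least 10 percent of the reads of gene and pseudogenes together, and in 3 (Rps10, Rpl17 and Rpl21) they held more than the gene. Rps10, the lowest member per length, averaged 2.02 CPM over the 8 libraries while its rows named as pseudogenes averaged 23.8 CPM, of which Rps10-ps2 held 21.7 CPM. The transcript of Rps10-ps2 was 99.0% identical to that of Rps10 over 496 aligned columns. The level of Rps10 given here is thus a level of the reads assigned to its row. Another set was the 384 rows described and annotated as pseudogenes of cytosolic ribosomal proteins, whatever their name. Reads on these rows summed to 464.5 to 486.3 CPM in retrieval and 440.7 to 467.4 CPM in non-retrieval, an overlap of a few CPM.

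Among the other cytosolic genes the largest positive values belonged to 2 small-subunit genes. Rps29 had 32.6, 47.0, 40.8 and 42.6 CPM in retrieval libraries, against 37.8, 28.4, 31.0 and 37.6 CPM in non-retrieval libraries. The first retrieval library lay inside the non-retrieval range and the other 3 above it. The log2 fold change was 0.27 (SE 0.11; edgeR adjusted p = 0.193), and without that library it was 0.37 (adjusted p = 0.0216). Rps28 ranged from 25.9 to 33.9 CPM in retrieval libraries, against 20.6 to 28.1 CPM in non-retrieval libraries. The groups overlapped, and edgeR gave 0.23 on the log2 scale (SE 0.11; adjusted p = 0.269). Rpl27-ps3, at 0.404 to 1.16 CPM in retrieval and 0.523 to 0.81 CPM in non-retrieval, had too few reads for its log2 fold change of 0.21 (SE 0.34) to carry a direction. Rps27l, a relative of Rps27 known as a target of p53, had 0.15 (edgeR adjusted p = 0.583).

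Rps19bp1 is included by its name only: it encodes a binding partner of RPS19 and not a ribosomal protein. It was the 1 cytosolic-group row whose retrieval libraries all lay above the non-retrieval ones (1.16% of 86 rows, against 6.59% of all tested genes). The retrieval libraries had 16.9, 16.8, 16.7 and 18.5 CPM, and the highest non-retrieval library had 16.4 CPM. The gap was narrow, and the log2 fold change was 0.12 (SE 0.08; edgeR adjusted p = 0.453).

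On the lower side, Rpl6, a large-subunit protein, was the 1 cytosolic gene with all retrieval libraries below the non-retrieval ones. That is 1.16% of 86 cytosolic genes, against 4.53% of all tested genes. Rpl6 had 219.9, 210.7, 214.3 and 217.4 CPM in retrieval libraries, against 223.2, 226.3, 245.2 and 242.4 CPM in non-retrieval libraries. The log2 fold change was -0.12 (SE 0.06; edgeR adjusted p = 0.276). Rpl22l1, a paralog of Rpl22, had 23.9, 16.2, 18.8 and 19.7 CPM in retrieval libraries, against 25.5, 20.3, 26.0 and 19.5 CPM in non-retrieval libraries, with overlap and -0.22 (SE 0.12; edgeR adjusted p = 0.35). Rpl21 and Rps27a had -0.12 each. Rps27a, which encodes ubiquitin fused to a small-subunit protein, owed its value to 1 library: it had 46.7 CPM in the third non-retrieval library and 27.8 to 31.9 CPM in the other 7. Rpl21 was likewise highest there, at 33.3 CPM, against 18.7 to 24.5 CPM in the other 7.

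In the 5 most abundant cytosolic messages the groups overlapped, and none was called. Rplp1 ranged from 268.1 to 339.9 CPM in retrieval and from 281.3 to 328.5 CPM in non-retrieval, with a log2 fold change of 0.01. Rps15 had 0.01, Rpl8 -0.07 and Rpl4 -0.03. Rps3a1 had 249.8, 219.0, 234.6 and 238.7 CPM in retrieval libraries, against 251.8, 242.3, 280.3 and 248.0 CPM in non-retrieval libraries, and a log2 fold change of -0.12 (SE 0.06; edgeR adjusted p = 0.351).

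Several cytosolic proteins have paralogs, some of which replace them in some tissues. Rps4l ranged from 10.1 to 14.3 CPM in retrieval and from 11.5 to 12.8 CPM in non-retrieval, and the X-linked gene Rps4x from 156.8 to 170.1 CPM in retrieval and from 154.4 to 183.1 CPM in non-retrieval. Rps4l is not annotated as protein coding in the table and is no member. Rpl22, the partner of Rpl22l1, ranged from 69.2 to 74.1 CPM in retrieval and from 70.0 to 80.2 CPM in non-retrieval. Rpl7l1 ranged from 39.0 to 39.9 CPM in retrieval and from 36.9 to 39.95 CPM in non-retrieval, and Rpl7 from 142.6 to 164.1 CPM in retrieval and from 155.1 to 172.4 CPM in non-retrieval. Of 15 paralogs and like-named genes tested, 0 were called by edgeR, against 4.57% of all tested genes. At an unadjusted p under 0.05 there were also 0, against 7.27% lower and 11.2% higher of all tested genes. Below the minimum of 10 reads were 9 names. Rpl3l, the form of Rpl3 found in heart and skeletal muscle, had 1 to 18 reads per library, Rpl36al 3 to 9, Rpl36a-ps1 6 to 11, and Rpl39l 0 to 3. The other 5, Rpl10l, Rpl9-ps1, Rpl36-ps4, Rpl13a-ps1 and Mrpl53, were listed at 0 reads in all 8 libraries. Just inside the minimum were Rpl27-ps3 with 12 to 32 reads and Rps10 with 44 to 75.

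The pattern by name left out ribosomal proteins with other symbols. Of the 7 described here, 0 were called by edgeR, against 4.57% of all tested genes. At an unadjusted p under 0.05, 1 was lower and 0 higher, against 7.27% and 11.2% of all tested genes. The lower one was Gadd45gip1, a large-subunit protein of the mitochondrial ribosome. It had 14.9, 13.7, 15.7 and 14.99 CPM in retrieval libraries, against 16.9, 15.4, 19.7 and 16.5 CPM in non-retrieval libraries, with overlap and a log2 fold change of -0.21 (SE 0.09; edgeR adjusted p = 0.227). The mitochondrial small-subunit proteins Ptcd3, Chchd1 and Dap3 had -0.16, -0.11 and -0.10, and Aurkaip1 0.02. The cytosolic proteins Fau and Rack1 had 0.02 and -0.01. Of these 5 mitochondrial genes 4 were thus negative, none of them called.

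Ribosomes are assembled by further proteins, listed here by pathway. Of 36 genes for mitochondrial ribosome assembly and translation, 1 fell and 0 rose (edgeR, adjusted p under 0.05), where 0.902% of all tested genes fell and 3.67% rose. Of the 36, 31 had a negative log2 fold change (86.1%), against 52.2% of all tested genes, and the median was -0.11. The gene that fell was Rbfa, which helps to mature the small subunit. It had 23.8, 25.4, 26.6 and 27.2 CPM in retrieval libraries, against 29.8, 31.5, 35.2 and 34.5 CPM in non-retrieval libraries. The groups did not overlap, and the log2 fold change was -0.35 (SE 0.08; edgeR adjusted p = 0.0188). The adjusted p was 0.0779 without non-retrieval library 3 and 0.0736 without non-retrieval library 4.

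Of 76 genes for cytosolic ribosome assembly, 1 rose and 0 fell, beside the same 3.67% and 0.902% of all tested genes, with a median log2 fold change of -0.01. The gene that rose was Mdn1, the large ATPase that strips assembly factors from the large subunit. It had 61.2, 62.0, 64.2 and 56.7 CPM in retrieval libraries, against 49.3, 46.7, 38.5 and 34.1 CPM in non-retrieval libraries. The groups did not overlap, and the log2 fold change was 0.53 (SE 0.10; edgeR adjusted p = 0.00402). Of 26 genes of mTORC1 and its control of pyrimidine-tract messages, 2 rose and 0 fell, where 3.67% of all tested genes rose and 0.902% fell. Their median was 0.01, against -0.01 over all tested genes. Ddit4, an inhibitor of mTORC1, had 44.3, 43.4, 49.1 and 41.0 CPM in retrieval libraries, against 26.8, 34.4, 27.6 and 34.0 CPM in non-retrieval libraries; edgeR gave 0.53 on the log2 scale (SE 0.09; adjusted p = 0.00244). Eif4ebp2, the translation repressor of the same pathway that prevails in brain, had 83.2, 84.4, 83.4 and 87.9 CPM in retrieval libraries, against 64.9, 70.5, 74.1 and 63.8 CPM in non-retrieval libraries; edgeR gave 0.31 on the log2 scale (SE 0.06; adjusted p = 0.0109). In both, every retrieval library lay above every non-retrieval one, as in 6.59% of all tested genes. Without the fourth non-retrieval library the adjusted p of Eif4ebp2 was 0.052, and with the myelin covariate 0.322.

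The RNAs of the mitochondrial ribosome did not follow its protein genes. mt-Rnr1, the small-subunit RNA, had 1892, 1349, 1998 and 1751 CPM in retrieval libraries, against 1584, 1401, 1361 and 1287 CPM in non-retrieval libraries. mt-Rnr2, the large-subunit RNA, had 2698, 1902, 2708 and 2482 CPM in retrieval libraries, against 2271, 1837, 2101 and 1803 CPM in non-retrieval libraries. In both, the second retrieval library lay among the non-retrieval ones and the other 3 retrieval libraries lay higher. The log2 fold changes were 0.31 (SE 0.10; edgeR adjusted p = 0.088) and 0.29 (SE 0.10; edgeR adjusted p = 0.123), so neither was called. What part of these RNAs the library preparation kept was not tested.

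Markers of cell types were measured beside these genes. The 8 cortical neuron markers summed to 8370 to 9330 CPM in retrieval and 8970 to 9630 CPM in non-retrieval, with none at 0 in any library. The 11 myelin markers summed to 4130 to 5990 CPM in retrieval and 3410 to 4020 CPM in non-retrieval, without overlap. Of these 11, 6 were called higher, against 3.67% of all tested genes. The 8 markers of striatal projection neurons summed to 342 CPM in the second retrieval library and 187 to 242 CPM in the other 7. The 5 astrocyte markers summed to 833 to 1000 CPM in retrieval and 842 to 875 CPM in non-retrieval, the 5 microglial ones to 184 to 222 CPM in retrieval and 202 to 209 CPM in non-retrieval, and the 3 endothelial ones to 123 to 151 CPM in retrieval and 126 to 142 CPM in non-retrieval. In the choroid plexus list, at 1.75 to 2.56 CPM in retrieval and 1.21 to 2.09 CPM in non-retrieval, Ttr was at 0 in at least 1 library. With the mean myelin level as a covariate, the mitochondrial median was -0.10 and 55 of 77 genes were negative, beside 73 of 77 without it, and of the genes named above as called, Rpl17, Rpl17-ps10, Rbfa, Mdn1 and Eif4ebp2 were not (adjusted p = 0.374, 0.479, 0.231, 0.0947 and 0.322), while Ddit4 was (0.0386). The myelin sums did not overlap between the groups, so the fit with this covariate can hardly separate group from myelin. A call lost in it is not attributed to myelin here. Without the second retrieval library the mitochondrial median was -0.08, with 69 of 77 negative.

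Within groups the members varied less than most genes. The median SD of log2 CPM was 0.10 for mitochondrial and 0.11 for cytosolic genes, against 0.15 over all tested genes, although the members were also more highly expressed than most. With group means removed, the correlation over the 8 libraries (Pearson's r, log2 CPM) of a cytosolic gene with the mean of the other genes of its own ribosome had a median of 0.547, and with the mean of the other ribosome 0.442. For mitochondrial genes these were 0.262 and 0.234. All points share the same 8 libraries and their scaling, so these values only describe the set. Cytosolic genes correlated more with their own family than mitochondrial genes did, but they also had more reads. The median level was 96.5 CPM for cytosolic and 23.3 CPM for mitochondrial genes, and the effect of depth was not tested.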

How the data were processed

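Total RNA from mPFC pools was sequenced after NEBNext Ultra library preparation, per the labels' protocols. The authors deposited whole-number read counts per gene. Per the submitters' processing notes these were made with HISAT2 2.0.5 and featureCounts 1.5.0-p3 on GRCm38; for the annotation release, the use of strand and the handling of reads with several matches, the setting is not given in the sources used here. Reads of near-identical copies may therefore be split or lost. The table gave a length for each gene beside the counts.

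The counts were tested with edgeR 4.0.16 (filterByExpr, TMM scaling, quasi-likelihood F test, retrieval over non-retrieval, 4 libraries each), with Benjamini-Hochberg adjustment over 16745 genes and a threshold of 0.05. CPM and RPKM were computed from the counts with TMM-scaled library sizes and the deposited gene lengths; for log2 CPM the prior count was 2. The test was checked on simulated counts for 16558 genes, where 8 of 127 calls were false. The members, gene lists and tests were chosen with earlier results of these data known. Genes are named by rule: called members, the 5 highest and 5 lowest fold changes and the 5 highest and 3 lowest levels per ribosome, paralogs, the 3 most variable per ribosome, ribosomal proteins with other names, and called genes of other lists.

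Alternatives were DESeq2 1.42.0, limma-voom with library quality weights (limma 3.58.1), other scalings and filters, and length and GC offsets (GC known for 99.9% of tested genes). Further ones were a myelin covariate, leaving out each library, a replicate block and, added after the data were seen, pseudogene reads added to their parent. Promoters came from RefSeq, and transcripts for the comparison of copies from GENCODE. Protein sequences were not used here. A ribosomal protein gene with another name is not reported here.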

Additional observations from a re-analysis of the deposited data

Results flagged for a closer look

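In 130 groups of 4 libraries, 7 had 1 library far from the other 3 by Dixon's ratio of its gap to the whole range. Chance alone flags about 1 in 20 such groups. Mrps16 was low in the third retrieval library, at 11.5 CPM, against 13.2 to 13.4 CPM in the other retrieval libraries (ratio 0.89). Rps27a was high in the third non-retrieval library, at 46.7 CPM against 27.8 to 29.97 CPM (ratio 0.887). Rps19bp1 was high in the fourth retrieval library, at 18.5 CPM against 16.7 to 16.9 CPM (ratio 0.872). Rps4l was high in the second retrieval library, at 14.3 CPM against 10.1 to 10.7 CPM (ratio 0.863). Mrpl41 was low in that same library, at 32.2 CPM against 35.8 to 36.4 CPM (ratio 0.862). Rpl17 was high in the fourth retrieval library, at 38.1 CPM against 27.2 to 28.7 CPM (ratio 0.861). Aurkaip1 was high in the fourth non-retrieval library, at 54.9 CPM against 44.6 to 46.3 CPM (ratio 0.84). The cause of these values was not tested.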

How the results depend on the processing

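The mitochondrial median stayed negative under every alternative run, from -0.12 (upper-quartile scaling) to -0.07 (length and GC offset); without 1 library it ranged from -0.103 to -0.0741. The cytosolic median did not keep its sign: it ranged from -0.0462 to 0.0139 without 1 library and was 0.00773 with a length offset. limma-voom called 2 mitochondrial genes lower, beside 509 of all 16745 tested genes. Cytosolic genes called lower numbered 0 under DESeq2, the myelin covariate and added pseudogene reads, and 0 to 1 without 1 library; those called higher numbered 1 under limma-voom (Rps29), the myelin covariate (Rps27rt) and no filter (Rps29), and 0 to 1 without 1 library. Over all tested genes, calls higher were 1110 under limma-voom and 123 with the myelin covariate, and ranged from 283 to 1032 without 1 library. Calls lower were 236 (DESeq2), 631 (length and GC offset), 509 (limma-voom), 12 (myelin covariate) and 241 (no filter), and ranged from 45 to 328 without 1 library. No label says that replicate numbers pair the libraries, and the values did not settle it. Deviations of same-numbered libraries correlated weakly, at 0.221, 0.085, 0.0268 and 0.0996, but each library correlated best with its own number. With the replicate block 1274 genes were called higher and 517 lower, and of the members Rpl17 alone. The direction turned for Mrpl33 (0.0262), Rpl22l1 (0.0186) and Rpl27-ps3 (-0.041) with the myelin covariate and for Mrpl35 with upper-quartile scaling (-0.00198). Leaving out 1 library at a time, the range crossed 0 for Mrpl35 (-0.0207 to 0.087), Mrpl52 (-0.0253 to 0.136), Rpl21 (-0.229 to 0.0644), Rps27a (-0.197 to 0.0847) and Rpl27-ps3 (-0.0995 to 0.426). The cause was not tested.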
